A study of Rattus norvegicus with 8 samples.

Results

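The genes described here are 9 genes of the hypoxia pathway: Vegfa, Adm, Cited2, Egln3, Egln1, Hif1a, Epas1, Bnip3 and P4ha1. They were taken by name, as every probe set annotated with only that gene symbol, out of 13810 genes named by a single symbol on the arrays. They had 14 probe sets, all on chip A, among 15866 on that chip, and none on chip B. All 14 passed the filter that removed dim probe sets, and their means without forskolin also lay above its level, so no gene entered through its forskolin arrays alone. The genes were chosen with the forskolin difference of these arrays already known, so they count as selected on the measured forskolin difference itself. Their differences are therefore given as a description of these arrays.

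The cells were PC12, a line from a rat adrenal medulla tumour (pheochromocytoma) that makes catecholamines. One group had forskolin, a plant compound that activates adenylyl cyclase and so raises cyclic AMP. The other group is labelled as without forskolin, and the series title calls it an inactive control. The sources used here state neither the forskolin dose and exposure time nor the oxygen level or what the control received, and all groups share the 1 cell line. Chip A and chip B each had 2 forskolin arrays and 2 arrays without forskolin. Nothing in the labels says that replicates came from separate cultures, so p-values measure only spread between arrays, which may be technical. That spread is partly borrowed from other probe sets of the same chip.

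Cells answer low oxygen mainly through the hypoxia-inducible factors, pairs of an oxygen-regulated alpha subunit (Hif1a or Epas1) and a stable partner (Arnt). When oxygen is present, prolyl hydroxylases of the EGLN family mark the alpha subunit, the VHL protein recognises the mark, and the subunit is degraded. When oxygen is low the subunit persists and switches on genes for blood vessel growth, glycolysis and survival, among them Vegfa, Adm, Bnip3, P4ha1 and Egln3. The alpha subunits are controlled mostly as proteins, which arrays do not measure, and chromaffin cells of the adrenal medulla are known for their response to low oxygen. Some of these genes are also known to be targets of cyclic AMP signalling in other cells, Vegfa among them.

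With forskolin, Cited2 was 1.86-fold and 2.02-fold higher on its probe sets, Vegfa was 1.35-fold higher and Egln3 was 1.22-fold higher, while none of the 9 probe sets of the other 6 genes passed the threshold. A probe set was called where the p-value of limma, a linear model with a moderated spread, was under 0.05 after Benjamini-Hochberg adjustment over the 11106 probe sets tested on chip A. Of the 14 probe sets, 5 were called higher and none lower, whereas limma called 2.03% of all tested chip A probe sets higher, 1.26% lower and 3.30% in either direction. Since the genes were chosen with this contrast known, nothing is read from that count. At an unadjusted p under 0.05, 1 of the 9 uncalled probe sets also passed, 1 of those of Epas1, where 17.4% of all tested chip A probe sets did. The forskolin arrays lay apart from the arrays without forskolin in 8 probe sets that were higher and 2 that were lower, where 20.4% of all tested probe sets were apart and higher, 28.0% apart and lower and 48.5% either. The median log2 change of the 14 probe sets was 0.07, against -0.01 over everything tested on that chip. Every change below is the log2 level with forskolin minus that without, and levels are the authors' log2 values.

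**Figure D1:**
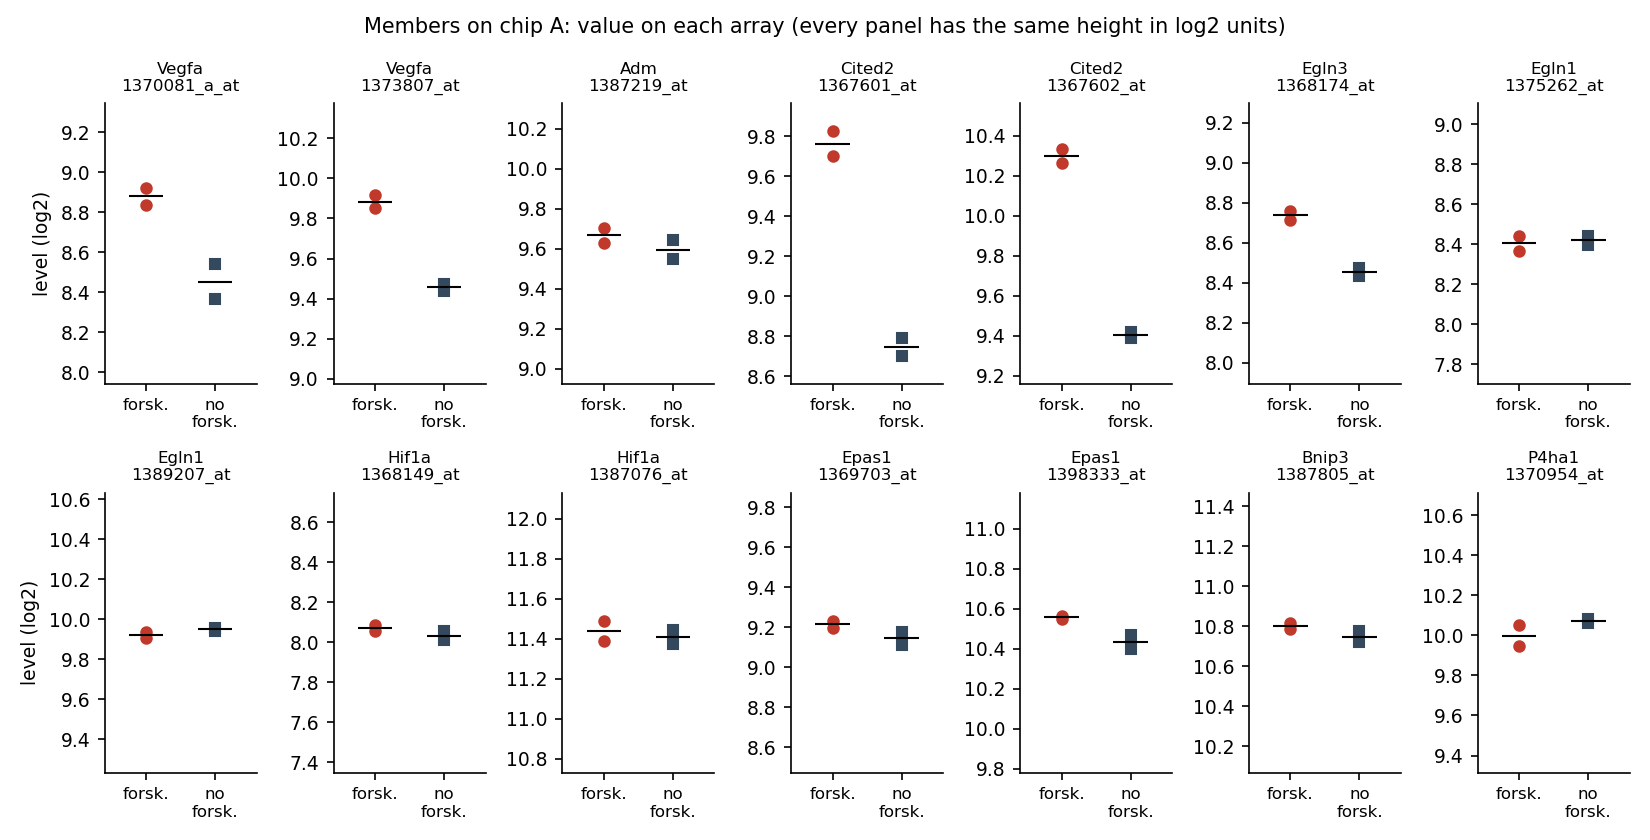
Level (log2, vertical axis) of each of the 14 probe sets on the 2 forskolin arrays (red circles) and the 2 arrays without forskolin (blue squares) of chip A, with each group's mean as a line; all panels have the same height in log2 units. The forskolin points stand clear of the others for both Vegfa probe sets, both Cited2 probe sets and Egln3, and the groups lie close together in the other 9 panels.

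Bnip3 was not called and had the most matches to the hypoxia motif core among the 9 genes, counting both strands. Its matches include a CACGTG palindrome, counted on each strand. With that palindrome counted once, Bnip3 would be level with P4ha1, which was not called either. The Bnip3 sequence around the transcription start is shown with those of the 3 genes called higher. Each is the RefSeq window of 250 bases before to 50 bases after the start on build GRCr8, printed 5′ to 3′ on the gene's own strand, with capitals marking matches on either strand to ACGTG or GCGTG (the core of the hypoxia response element) or to TGACGTCA or TGACG (the cyclic AMP response element and its partial site).
Vegfa, chr9:22452604-22452903, strand +: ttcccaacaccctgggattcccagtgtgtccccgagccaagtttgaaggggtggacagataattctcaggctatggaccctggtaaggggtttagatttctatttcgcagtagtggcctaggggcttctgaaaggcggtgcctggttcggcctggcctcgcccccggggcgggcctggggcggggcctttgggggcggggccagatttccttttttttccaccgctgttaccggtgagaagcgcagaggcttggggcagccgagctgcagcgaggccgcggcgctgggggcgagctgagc
Cited2, chr1:14132053-14132352, strand +: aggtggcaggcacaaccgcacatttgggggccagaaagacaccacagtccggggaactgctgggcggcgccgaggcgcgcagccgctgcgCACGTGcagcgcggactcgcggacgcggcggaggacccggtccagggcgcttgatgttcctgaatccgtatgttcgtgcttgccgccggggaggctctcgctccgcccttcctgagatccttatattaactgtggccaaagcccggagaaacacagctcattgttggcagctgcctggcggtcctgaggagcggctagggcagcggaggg
Egln3, chr6:77410966-77411265, strand -: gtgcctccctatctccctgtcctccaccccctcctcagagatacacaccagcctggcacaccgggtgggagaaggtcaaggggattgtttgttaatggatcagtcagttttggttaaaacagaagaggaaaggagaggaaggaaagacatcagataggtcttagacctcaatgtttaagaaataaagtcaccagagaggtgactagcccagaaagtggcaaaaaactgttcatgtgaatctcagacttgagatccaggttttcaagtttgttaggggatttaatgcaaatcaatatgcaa
Bnip3, chr1:203154913-203155212, strand -: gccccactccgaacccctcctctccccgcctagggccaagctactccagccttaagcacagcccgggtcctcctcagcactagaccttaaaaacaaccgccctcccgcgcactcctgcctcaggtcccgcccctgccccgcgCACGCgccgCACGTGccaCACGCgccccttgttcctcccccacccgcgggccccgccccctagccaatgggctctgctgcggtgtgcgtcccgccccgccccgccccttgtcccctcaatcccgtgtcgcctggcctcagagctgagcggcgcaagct
A RefSeq window was found for all 9 genes, and Vegfa had a further entry at chr9:22460028-22460327 (strand +) that also held none of the 4 motifs. Neither TGACGTCA nor TGACG was found in the window of any of the 9 genes, whereas 1.83% and 21.2% of 33469 RefSeq windows of the same length hold them. The longer of these contains the shorter. The hypoxia core, as ACGTG or GCGTG, was found for Cited2, Egln1, Hif1a, Bnip3 and P4ha1, and in 41.6% of all windows. The Cited2 match is the palindrome CACGTG, counted once on each strand, which begins 160 bases before the start. The windows of Vegfa, Egln3, Epas1 and Adm held no match to either core. GC content, which raises the chance of these cores, was 63.3% for Vegfa, 66% for Cited2, 44.7% for Egln3 and 71.3% for Bnip3, against a median of 51.7%. A missing match says only that these letters are not in this window.

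Vegfa encodes a secreted growth factor that drives endothelial growth and vessel permeability. Its probe set 1373807_at measured 9.85 and 9.92 with forskolin, against 9.44 and 9.48 without. Both forskolin arrays lay above both others, and the change was 0.43 ± 0.04 (log2, SE, n = 2 arrays per group), with a 95% interval of 0.33 to 0.52. The probe set 1370081_a_at measured 8.92 and 8.84 with forskolin, against 8.37 and 8.54 without. The groups were again apart, but the arrays without forskolin differed more from each other, with an SD of 0.12 against 0.06 for the forskolin arrays. Its change was 0.43 ± 0.06 (log2, limma's moderated SE, not computed from these SDs alone), so the pair of probe sets gave the same value to 2 decimals. In size these changes exceeded those of 98.8% of the tested probe sets of chip A.

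Adm encodes adrenomedullin, a vasodilator peptide first found in human pheochromocytoma and made by chromaffin cells. It measured 9.63 and 9.71 with forskolin, against 9.55 and 9.64 without. The groups overlapped, since the higher array without forskolin exceeded the lower forskolin array. The change was 0.07 ± 0.05 (log2, SE), with a 95% interval of -0.04 to 0.18, and was not called. Ligands and receptors around these peptides mostly did not pass the threshold either. Of 7 tested VEGF ligands and receptors, 2 were called higher (Vegfa and Pgf) and none lower, with a median of 0.05, and of adrenomedullin and 3 tested receptor genes limma called none, also at an unadjusted p under 0.05, with a median of 0.02 (log2). The same quantity over all 11007 genes tested through their brightest probe set was -0.02, and 2.40% of those genes were called. These 11007 genes pool chip A with genes read only on chip B, where far fewer probe sets were called. Over the tested probe sets of chip A alone, 3.30% were called and 17.4% had an unadjusted p under 0.05.

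Pgf, placental growth factor, is a VEGF relative that binds the receptor Flt1. It measured 10.67 and 10.65 with forskolin, against 10.50 and 10.43 without, on its brightest probe set, a change of 0.20 ± 0.04 (log2, SE, limma adjusted p = 0.0272). Its limma adjusted p was between 0.0110 and 0.0625 over the alternative analyses that kept all arrays. The call was lost by eBayes without a trend (0.0573) and with the replicate number as a block (0.0625). It was also lost on leaving out forskolin replicate 1, forskolin replicate 2 or no forskolin replicate 2, with changes of 0.18, 0.21 and 0.16. Its other probe set measured 0.09 ± 0.04 and was not called (limma adjusted p = 0.273). Flt1, a VEGF receptor, measured 0.12 ± 0.05 without a call (limma adjusted p = 0.240).

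Cited2 encodes a nuclear protein that binds the coactivators Crebbp and Ep300 at the surface that the HIF alpha subunit uses, and so restrains HIF. It is itself known as a HIF target. Its probe set 1367602_at measured 10.33 and 10.26 with forskolin, against 9.39 and 9.42 without, a change of 0.89 ± 0.04 (log2, SE) or 1.86-fold (95% interval 1.74 to 1.98). The probe set 1367601_at measured 9.70 and 9.82 with forskolin, against 8.70 and 8.79 without, a change of 1.02 ± 0.05 or 2.02-fold (1.86 to 2.20). On both, the gap between the groups was several times the distance between arrays of the same group. By p-value the first of these stood at rank 37 and the other at rank 45 among the tested probe sets of chip A. The coactivators themselves were not called. Ep300, an acetyltransferase that HIF recruits, measured 0.09 ± 0.05 on its brightest probe set (limma adjusted p = 0.383), and Crebbp, its close relative, which is named although the selection rule does not take it, measured 0.05 ± 0.04 on its own.

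Egln3 and Egln1 encode prolyl hydroxylases of the same family. Egln1 is the main enzyme that marks HIF alpha subunits in most cells at normal oxygen, while Egln3 is strongly induced by hypoxia and in rat sympathetic neurons and PC12 cells has been linked to cell death after loss of nerve growth factor. Egln3 measured 8.71 and 8.76 with forskolin, against 8.47 and 8.43 without. The groups were apart, and the change was 0.28 ± 0.04 (log2, SE) or 1.22-fold (95% interval 1.14 to 1.30). It rests on a single probe set. Egln1 measured 9.91 and 9.94 with forskolin, against 9.96 and 9.94 without, on 1389207_at, where the forskolin arrays were lower but the groups all but touched. On 1375262_at it measured 8.37 and 8.44 with forskolin, against 8.44 and 8.40 without, and the groups overlapped. The Egln1 changes were -0.03 ± 0.04 and -0.02 ± 0.05, with 95% intervals of -0.11 to 0.06 and -0.12 to 0.09. Those intervals lie below that of Egln3, but the difference between the genes was not itself tested.

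Other genes of oxygen sensing and HIF turnover were taken from a list of 11, of which 10 were tested. Of these, 2 were called higher (Egln3 and Siah2), 1 lower (Vhl) and 7 were not called, where 2.40% of all genes tested were called, with a list median of -0.03 (log2). Siah2, a ubiquitin ligase that sends EGLN hydroxylases to degradation, measured 8.18 and 8.33 with forskolin, against 7.61 and 7.64 without. Its change was 0.63 ± 0.06 (log2, SE, limma adjusted p = 3.58e-04) or 1.54-fold. Vhl, the protein that recognises hydroxylated HIF, measured 8.63 and 8.72 with forskolin, against 8.95 and 8.97 without. It fell by 0.28 ± 0.05 (log2, SE, limma adjusted p = 0.0121). Over the alternatives that kept all arrays the limma adjusted p was 0.00193 to 0.0511, and the call was lost with the replicate number as a block (0.0511). It was also lost without forskolin replicate 1, where the change was -0.24. Cul2, the scaffold of the VHL ubiquitin ligase, had the smallest p of the uncalled members of the list, with 0.15 ± 0.06 (limma adjusted p = 0.245).

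The alpha subunits differed little. Hif1a measured 11.39 and 11.49 with forskolin, against 11.44 and 11.37 without, on 1387076_at, and 8.05 and 8.09 with forskolin, against 8.06 and 8.01 without, on 1368149_at. On both the groups overlapped, and the changes were 0.03 ± 0.04 and 0.04 ± 0.04 (log2, SE). Epas1, the alpha subunit known as most characteristic of chromaffin and endothelial cells, measured 10.55 and 10.56 with forskolin, against 10.40 and 10.47 without, on 1398333_at. The groups were apart there, and the change of 0.12 ± 0.04 (95% interval 0.04 to 0.21) did not pass the threshold after adjustment. On 1369703_at Epas1 measured 9.20 and 9.23 with forskolin, against 9.11 and 9.18 without, also apart, a change of 0.07 ± 0.04. None of the 4 tested genes among the HIF subunits and partners was called. At an unadjusted p under 0.05, 2 of the 4 passed, Epas1 and the partner Arnt (0.14 ± 0.05), against 14.2% of all genes tested. All 4 were read on chip A, where 17.4% of the tested probe sets passed.

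Bnip3 and P4ha1 stand here for targets of HIF. Bnip3, a mitochondrial protein that promotes mitophagy and cell death, measured 10.82 and 10.79 with forskolin, against 10.78 and 10.72 without. The groups were apart by a small margin, and the change was 0.05 ± 0.04 (log2, SE), with a 95% interval of -0.03 to 0.14. P4ha1, a catalytic subunit of the enzyme that hydroxylates prolines of collagen, measured 9.95 and 10.05 with forskolin, against 10.06 and 10.08 without. The forskolin arrays were the lower ones, and the change was -0.08 ± 0.04, with a 95% interval of -0.18 to 0.03. Over the 9 uncalled probe sets, the 95% intervals ran from 0.885-fold to 1.16-fold (the highest bound being that of Epas1 1398333_at), which overlaps the 1.14 to 1.30 of Egln3. The plot of changes sets these intervals beside those of the called genes.

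**Figure D2:**
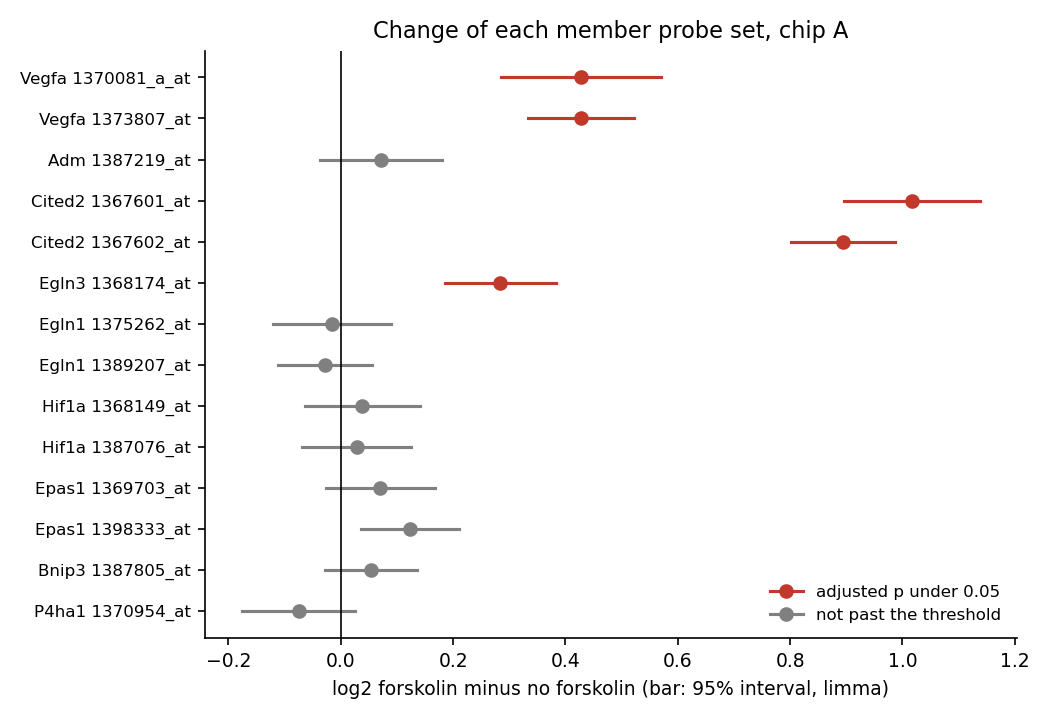
Change of each of the 14 probe sets (horizontal axis, log2 forskolin minus no forskolin; points are means of 2 arrays per group, bars are limma's 95% intervals), ordered by role from ligands to targets. The 5 called probe sets (red) lie between 0.28 and 1.02, and the 9 others (grey) between -0.08 and 0.12.

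Across all hypoxia lists, 67 of 84 genes were tested and 7 were called higher and 1 lower. Without the 9 genes above, 4 of 58 were called higher and 1 lower, and the median change of the 58 was 0.00 (log2). Both counts of genes called higher include Bhlhe40, which passed the filter only through its forskolin arrays. Over all 11007 genes tested, 160 were called higher and 104 lower, or 2.40%. All of these lists were drawn up with results of these data known. None of the 16 tested glycolysis genes was called by limma, with a median of -0.01 and a range of -0.07 to 0.16. At an unadjusted p under 0.05, 1 passed, against 14.2% of all genes tested. All 16 were read on chip A, where 17.4% of the tested probe sets passed. The top of that range was Pfkfb4, an enzyme that sets the level of a glycolytic activator, at 0.16 ± 0.05 (limma adjusted p = 0.165). The 5 tested collagen hydroxylase and crosslinking genes ranged from -0.08 to 0.01, with none called and none at an unadjusted p under 0.05.

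Among stress-related targets 1 of 12 was called, and among the remaining targets 1 of 6, both higher, against 2.40% of all genes tested. Some of the remaining targets were read only on chip B, where 16 of 10693 tested probe sets were called higher and 1 lower. Ddit4, an inhibitor of the growth kinase mTOR that hypoxia induces, measured 10.83 and 10.78 with forskolin, against 9.59 and 9.62 without, a change of 1.20 ± 0.04 (log2, SE, limma adjusted p = 3.77e-07). Bhlhe40, a transcriptional repressor that responds to hypoxia and acts on the clock, measured 7.62 and 7.56 with forskolin, against 6.94 and 6.84 without, a change of 0.70 ± 0.06 (limma adjusted p = 1.54e-04). Without forskolin Bhlhe40 lay below the filter level of 7.02 and it passed through its forskolin arrays. Its probe set on chip B measured 0.34 ± 0.08 without a call (limma adjusted p = 0.602). Hmox1, heme oxygenase, led the uncalled stress targets at 0.11 ± 0.03 (limma adjusted p = 0.147). Edn1, which encodes the vasoconstrictor endothelin, had the smallest p of the uncalled remaining targets, at 0.03 ± 0.06 (limma adjusted p = 0.821). In the list plot, Pgf is the called gene nearest to the uncalled ones.

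**Figure D3:**
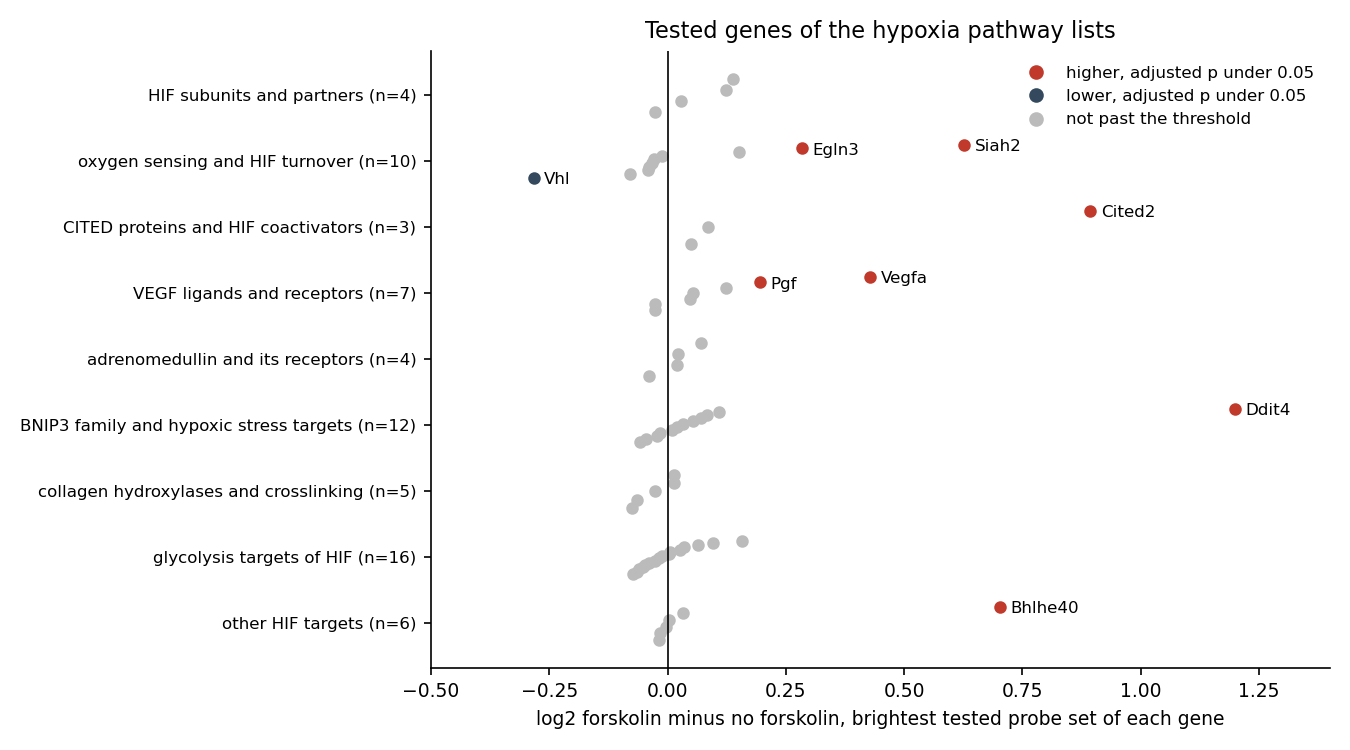
Change of every tested gene of the 9 hypoxia lists (horizontal axis, log2 forskolin minus no forskolin, brightest tested probe set; 1 point per gene, with called genes coloured and named). Of 67 genes, 7 were called higher and 1, Vhl, lower, and the glycolysis genes lie between -0.07 and 0.16. Bhlhe40, among the 7, passed the filter only through its forskolin arrays.

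To show which genes had a pattern close to those of Vegfa and Cited2, each probe set was centred on its mean over the 4 arrays of chip A and compared by the root mean square difference (log2). The closest genes to Vegfa 1373807_at were Slc30a1 (0.010), Lama5 (0.015), Ppp1r10 (0.018), Bmp2 (0.021) and Dll1 (0.022), with changes of 0.39 to 0.47. The closest to Cited2 1367602_at were Cebpb (0.015), Irf2bp2 (0.029), Arc (0.032), Bambi (0.037) and Pvr (0.037), with changes of 0.87 to 0.95. Over 4 arrays that fall into 2 groups, such likeness mainly records a change of the same size, and it is a description.

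The arrays of chip A were closely matched, with medians between 8.15 and 8.17 (log2), correlations across probe sets above 0.999 within groups and about 0.997 between groups. On chip B the correlations were 0.994 to 0.996 within groups and also 0.994 to 0.996 between groups. They did not set the treatment groups apart there. Of defining genes of PC12, Th, Ddc, Chga, Chgb, Phox2a and Gata3 passed the filter, while Dbh, Slc18a1 and Slc6a2 lay below it. Passing is no proof of expression, since the glial genes Gfap and Sox10 passed too. Of the fibroblast genes, Col3a1, Col1a1 and Dcn passed, while Col1a2, Lum and Pdgfra lay below the filter. Col3a1 averaged 11.83 with forskolin and 11.82 without, above Th at 11.75 and 11.64. Of the PC12 markers 1 of 6 tested genes, Phox2a, was called higher, at 0.41 ± 0.03 (limma adjusted p = 1.02e-04), and 5 of the 6 passed at an unadjusted p under 0.05, of which only Gata3 (-0.12) was lower, against 14.2% of all genes tested. The summed linear level of the 9 markers on chip A was 14950 to 15047 with forskolin, against 12798 to 13174 without. Bright genes weigh most in such a sum, and the brightest was Phox2a, at 12.43 with forskolin and 12.02 without (log2). Not all markers rose: Slc18a1 (-0.11), Slc6a2 (-0.11), Gata3 (-0.12) and 1 probe set of Ddc (-0.07) measured lower with forskolin. Limma called none of the 3 tested fibroblast, 2 endothelial and blood, 2 adrenal cortex and 3 glial markers, and 1 of them, from the fibroblast list, passed at an unadjusted p under 0.05. The summed levels were 5336 to 5490 with forskolin against 5257 to 5325 without for 6 fibroblast genes, and 397 to 410 against 383 to 387 for 4 endothelial and blood genes. For 5 adrenal cortex genes they were 628 to 658 with forskolin against 612 to 635 without, and for 4 glial genes 710 to 718 against 667 to 704. The tables have no true zero or detection calls, so no marker can be called absent, and the part of these levels in the changes above was not tested. In whole-culture RNA, fewer cells of a kind and less RNA per cell cannot be told apart.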

How the data were processed

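Total RNA was measured on 8 arrays, 4 of chip A and 4 of chip B. The authors deposited 1 processed log2 value per probe set and array in a table for each chip. The background correction, probe summary and scaling behind them are not stated in any source at hand, and base 2 was inferred from the values: as log2, 100% lie inside a 16-bit scanner range, while as natural logs 3063 values of chip A and 115 of chip B would leave it. There were no detection calls, so distance from background is unknown, and the number of arrays limits the precision.

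The members and gene lists were chosen with earlier results of these data known. Gene names came from GEO's annotation of each chip, updated by Entrez number to RefSeq (GRCr8). On chip A 12783 probe sets had 1 symbol, 312 several and 2771 none, and only the first were named. The medians of the arrays spanned 0.021 (chip A) and 0.025 (chip B), so the authors' scaling was kept. Probe sets whose mean linear value lay under the 30th percentile of their chip were left out, leaving 11106 (chip A) and 10693 (chip B). Each chip was fitted alone with limma 3.58.1 in R 4.3.3 (lmFit, eBayes with an intensity trend, two-sided, Benjamini-Hochberg over the chip). The median SE of a log2 change was 0.045 (chip A) and 0.089 (chip B). The fit was run on simulated data with known changes, with independent noise whose spread was shuffled across probe sets. That run checks the code only and says nothing about precision on these arrays. Where a listed gene had several tested probe sets the brightest stood for it, with chip A taken first. Genes named are the 9 members, every called list gene, from each list the uncalled gene whose p was smallest, and the 5 genes closest to Vegfa and to Cited2. Crebbp, Arnt, markers that checked the cell type and 4 genes under the filter were named outside this rule. Alternatives were quantile normalization, median centring, no filter, a filter at the 50th percentile, eBayes without a trend, each array left out, the replicate number as a block and, for list counts, the probe set with the smallest p. Promoter windows are RefSeq's, with no genome sequence used.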

Additional observations from a re-analysis of the deposited data

How the results depend on the processing

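Over the 10 alternatives, both Cited2 probe sets and Vegfa 1373807_at passed the threshold in all 10, with changes of 0.86 to 1.08 and 0.40 to 0.46 (log2). In the alternatives that leave out an array, 1 group has a single array, so p-values and counts rest mostly on spread borrowed from other probe sets. In those fits the 5 called member probe sets stayed higher. Egln3 changed by 0.26 to 0.31 and Vegfa 1370081_a_at by 0.34 to 0.51 (log2). With the replicate number as a block, 3 were called, since Vegfa 1370081_a_at had a limma adjusted p of 0.0676 and Egln3 of 0.0566, and 5 of the hypoxia list genes were called against 8, where Vhl (0.0511) and Pgf (0.0625) also missed it. The labels share numbers only, so the block has no stated basis. The deviations of same-numbered arrays from their group means correlated across probe sets at -0.01 on chip A, where the members lie, and 0.17 on chip B. The block adds a parameter to fits of 4 arrays. Among 25 probe sets of named genes and 243 alternative values, 229 kept direction and side, 9 lost the call, none gained one and 5 turned direction, all 5 on uncalled values near 0: Egln1 1375262_at (-0.051 to 0.021 over the single arrays left out), Hif1a 1387076_at (-0.022 to 0.078) and Edn1 (-0.029 to 0.096). Leaving out 1 array gave 6 to 8 called list genes.

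Background counts moved more. On chip A, 226 probe sets were called higher (168 to 257 with 1 array left out) and 140 lower (83 to 192, lowest when forskolin replicate 1 was dropped and 85 when forskolin replicate 2 was), with 277 lower under median centring and 46 under the replicate block. On chip B, 16 were higher (10 when forskolin replicate 2 was dropped, 37 and 41 when no forskolin replicate 1 or 2 was, 27 under quantile normalization) and 1 lower (0 when forskolin replicate 1 was dropped, 57 and 5 when no forskolin replicate 1 or 2 was, with 3 under quantile normalization and 2 under the replicate block). The cause was not tested. The share of calls that were higher on chip A was 61.7%, with 52% under median centring, 77.6% under the replicate block, and 55.5% to 71.6% with 1 array left out. No probe set of chip B carries the symbol of a member alone, so each member was read on 4 arrays only. On that chip 7612 probe sets had no symbol and 100 had several, and these were not searched for members.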

Other observations

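Of the listed hypoxia genes, 12 had only probe sets under the brightness filter and were not tested. Their 16 probe sets differed by -0.05 to 0.15 (log2, forskolin minus no forskolin), with 5 apart and higher, 2 apart and lower and 9 overlapping, where 20.4% of the tested probe sets of chip A were apart and higher and 28.0% apart and lower. Those with the highest changes were Pdk1, which restrains pyruvate entry into mitochondria (0.15 and -0.05 on its probe sets), Nrp2, a coreceptor of VEGF ligands (0.15), Igfbp3, which encodes a binding protein of insulin-like growth factors (0.14 and -0.01), and Hk2, which encodes a hexokinase (0.11). These genes were named after their values were seen, and the distance of such levels from background is unknown.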
